A study of Mus musculus with 2 samples.

Results

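The glucocorticoid receptor (GR, gene Nr3c1) and 7 genes of the chaperone complex that holds it in the cytosol are described here in MIN6 cells, a line from a mouse insulinoma that secretes insulin and stands in for beta cells. The 8 genes were taken by symbol from the deposited table of all genes: Nr3c1, Hsp90aa1, Hsp90ab1, Hspa8, Stip1, Ptges3, Fkbp4 and Fkbp5. All 8 were found among the 21542 genes of that table. The series holds 2 samples, both of MIN6 cells labelled with the strain C57BL/6 and grown in medium with 25 mM glucose and 15% serum. One was transfected with a GR expression vector and the other with a control vector. Each received 4 ug of plasmid with 4.8 ul of Lipofectamine in a 3.5 cm dish. The sources used here do not give the promoter of the vector, the species and form of its GR cDNA, the share of cells that took it up, the hours before harvest or whether hormone was added.

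Without hormone, GR sits in the cytosol bound to HSP90. HSP70 and the adaptor STIP1 (also called HOP) pass newly made receptor to HSP90, the co-chaperone p23 stabilizes the form able to bind hormone, and the immunophilins FKBP51 (gene Fkbp5) and FKBP52 (gene Fkbp4) attach to HSP90 by their tetratricopeptide repeats. FKBP51 lowers the affinity of the receptor for hormone, and FKBP52 links it to dynein and favours its transport to the nucleus. Fkbp5 is itself induced by glucocorticoids in many tissues, which makes it part of a negative feedback on the receptor. In beta cells, glucocorticoids acting through GR are known to lower insulin secretion.

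The GR library held 18525668 reads over genes and the control library 18537326, recovered from the authors' scaled counts. With 1 library per vector there is no replicate check, no test of the conditions was possible, and the vector and the library cannot be told apart. Intervals below are exact 95% Clopper-Pearson intervals of a ratio of reads and cover counting error only. As background, among 12119 genes averaging 50 reads or more over the 2 libraries, 0.866% lay past 1.5-fold in either direction, and among 4867 genes averaging 1000 or more 0.103% did. The interval excluded 1 for 26.6% of the genes with at least 1000 reads, so an interval that excludes 1 was common in this pair of libraries. The label of the cells was matched by their transcripts: all 7 beta cell markers looked at averaged 50 reads or more, with 752579 summed reads in the GR library and 799176 in the control library. Of 4 markers of other islet cells, 3 were in the table, with 758 summed reads in the GR library and 644 in the control library. Markers of other tissues were scarce: 3 of stroma and endothelium had 74 summed reads in the GR library and 66 in the control library, the exocrine marker Cela1 had 13 and 7, and the immune markers Ptprc and Cd68 together had 22 and 26.

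Nr3c1, the receptor itself (ENSMUSG00000024431, chromosome 18, 39410545 to 39491301, minus strand), was the only one of the 8 genes past 1.5-fold. It had 5202 reads in the GR library and 2645 in the control library, a fold of 1.97 with an interval of 1.88 to 2.07. Of the 4867 genes with at least 1000 reads, 3 (0.0616%) had a larger absolute log2 fold, and the folds of these well-read genes ran from -1.77 to 4.07 on the log2 scale. By reads it was the 555th gene of the GR library and the 1657th of the control library. A larger share of cells with the vector and more transcript in each such cell cannot be told apart in bulk RNA, and neither can reads of the vector and of the cells' own gene in these counts. Of the stretches of 31 bases (31-mers) in its annotated transcripts, 0.130% occur in another annotated gene, so few of its reads could be exchanged with other genes.

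In the authors' deposited table Nr3c1 had a log2 fold change of 0.98, a p of 0.0183 and an adjusted p of 1, and each of the 7 chaperone genes also had an adjusted p of 1. Those p-values rest on a preset spread between libraries and not on a measured one. The other 7 genes lay between 0.961-fold for Fkbp4 and 9.89% higher for Ptges3, and none of them passed 1.1-fold, a size that 7.09% of the genes with at least 1000 reads passed. Ptges3 lay at the edge of that size: it was 10.1% higher with upper-quartile scaling and 10.8% higher with the trend of length removed, which took it past 1.1-fold, and 6.28% higher with the trend of GC content removed. Their median log2 fold was 0.02, against 0.01 over all genes with at least 1000 reads, with 5 of the 7 above 0 and 2 below (Fkbp4 and Stip1). Hsp90ab1 lay so close to 0 that it fell below it when the libraries were scaled by total reads or by the median of ratios, and Hspa8 did so when the trend with GC content was removed. The interval excluded 1 for 3 of the 7, against the 26.6% of genes given above.

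**Figure D1:**
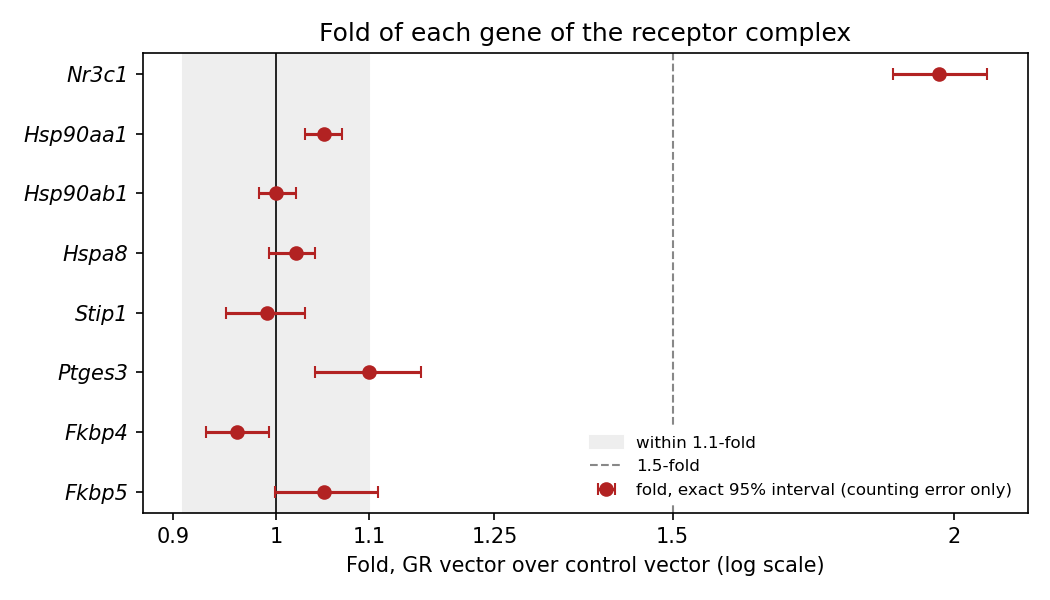
Fold of each gene in the GR library over the control library (log axis), with the exact 95% interval that covers counting error only; the grey band is 1.1-fold either way and the dashed line 1.5-fold. Nr3c1 stands at 1.97 and the 7 chaperone genes lie between 0.961 (Fkbp4) and the edge of the band (Ptges3, 9.89% higher).

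The nearest genes with enough reads on either side of Nr3c1 on chromosome 18 did not share its difference. With at least 50 reads on average, the nearest on one side were Arhgap26 with 343 reads in the GR library and 383 in the control library, Fgf1 with 568 and 567, and Spry4 with 67 and 75. On the other side were Yipf5 with 1215 reads in the GR library and 1179 in the control library, Lars (a leucyl-tRNA synthetase) with 4654 and 4662, and Rbm27 with 1092 and 994. These 6 folds ran from 0.896 for Spry4 to 1.1 for Rbm27, and the interval included 1 for each except Rbm27 (1.01 to 1.20). Not all of these genes lie close to Nr3c1: Yipf5 starts at 40204865, Lars at 42202350 and Rbm27 at 42275353.

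Among genes averaging 100 reads or more, those whose log2 fold lay nearest that of Nr3c1, taken over these 2 libraries, were mt-Atp6, Dynlt1c and Uchl3. The mitochondrial gene mt-Atp6, a subunit of ATP synthase, had 788 reads in the GR library and 381 in the control library, a log2 fold of 1.05. Dynlt1c, a dynein light chain gene, had 344 reads in the GR library and 156 in the control library, a log2 fold of 1.15. Uchl3, a ubiquitin hydrolase gene, had 453 and 261 reads, a log2 fold of 0.80. All 3 were read far less than Nr3c1, and a likeness over 2 libraries is only a likeness of folds.

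**Figure D2:**
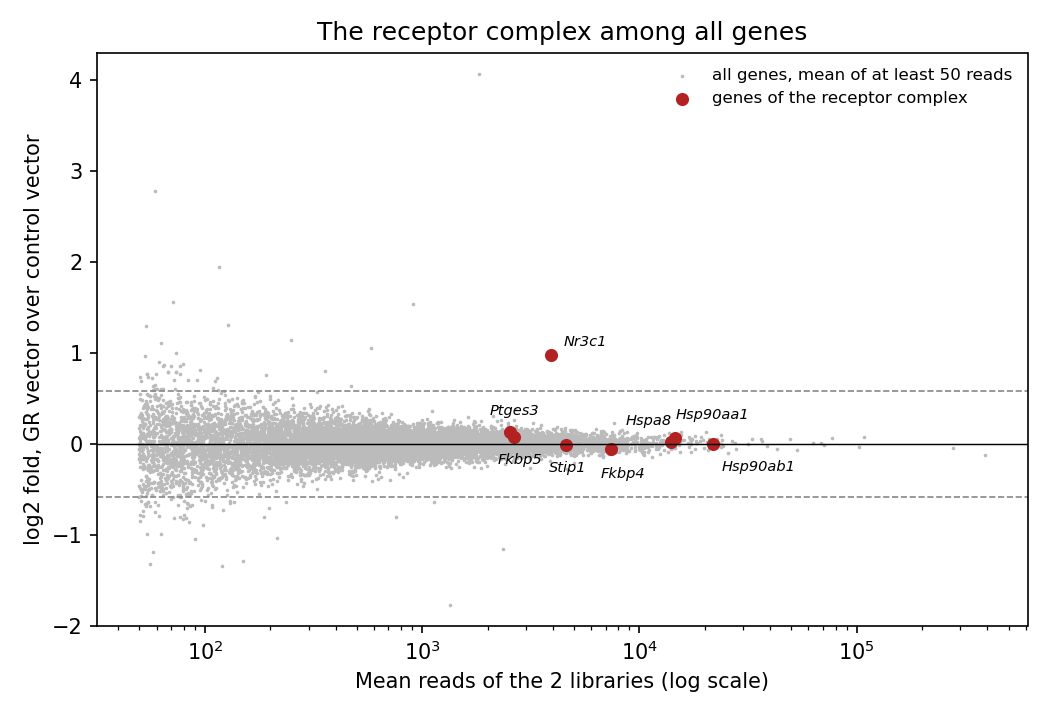
Mean reads of the 2 libraries (log axis) against the log2 fold of the GR library over the control library for all 12119 genes averaging 50 reads or more; the dashed lines are 1.5-fold either way. Nr3c1 (log2 fold 0.98) lies above the upper line, where few genes with as many reads are found, and the 7 chaperone genes (between -0.06 and 0.14) lie within the cloud.

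Levels can be compared between genes per length. With the exonic length given in the authors' table, Hsp90ab1 was the most abundant of the 8 genes at 392 RPKM in both libraries (reads per kilobase, scaled to the size of the library). Hsp90aa1 followed with 205 RPKM in the GR library and 196 in the control library, then Hspa8 with 177 and 174, Fkbp4 with 141 and 147, and Stip1 with 113 and 115. Ptges3 had 64.6 RPKM with the GR vector and 59.0 with the control vector. At the low end, Nr3c1 had 37.8 RPKM with the GR vector and 19.2 with the control vector, and Fkbp5 had 15.5 and 14.7. The level of Nr3c1 in the GR library rests on its annotated length. That of the vector's transcript is not known here. By exonic length the order of the 8 genes was the same in both libraries. Over the longest annotated transcript of each gene it was not. Hsp90aa1 then had 246 RPKM in the GR library and 235 in the control library, and Hspa8 had 241 and 238. Hspa8 thus lay above Hsp90aa1 in the control library and below it in the GR library. The place of Fkbp5 depends on its length: over its longest annotated transcript in place of all exons it had 38.0 RPKM in the GR library and 36.1 in the control library, where Nr3c1 had 43.6 and 22.2, so that Fkbp5 then lay above Nr3c1 in the control library and below it in the GR library.

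**Figure D3:**
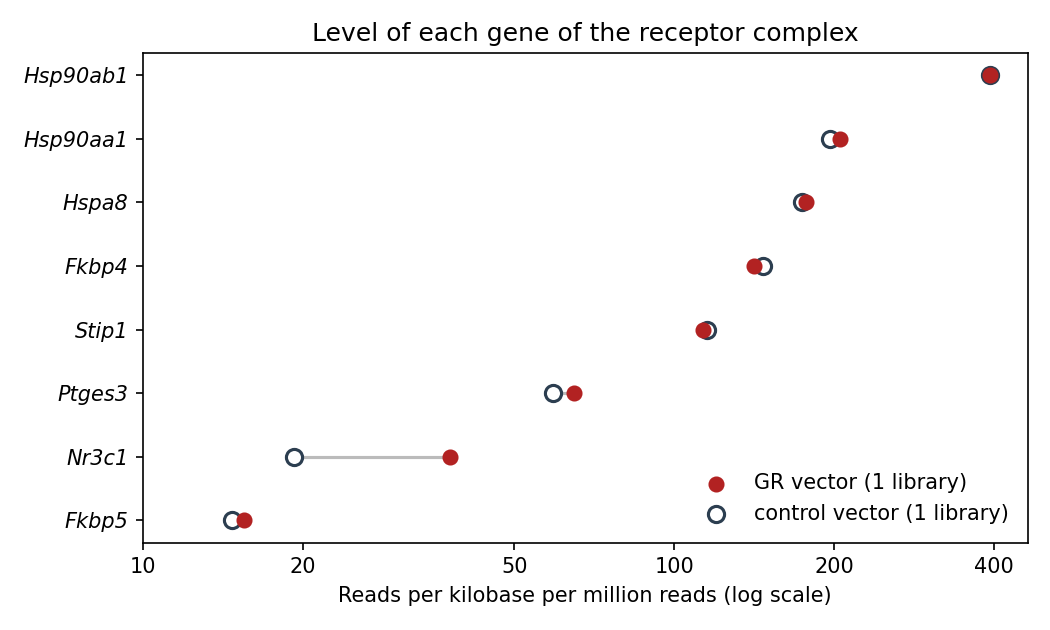
Reads per kilobase, scaled to library size (RPKM, log axis), of each gene in the GR library (filled red) and the control library (open), 1 library each. Points of the 7 chaperone genes nearly coincide, and Nr3c1 has 37.8 with the GR vector against 19.2 with the control vector.

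HSP90 is the ATP-driven chaperone that holds the receptor in a shape able to bind hormone, and it has 2 cytosolic forms. Hsp90ab1 (chromosome 17, 45567775 to 45573271, minus strand), the form made constantly in most cells, had 21757 reads in the GR library and 21813 in the control library, a fold of 1.00 (interval 0.982 to 1.02). It ranked 31st by reads in both libraries, and 99.6% of the genes with at least 1000 reads had a larger absolute log2 fold. Hsp90aa1 (chromosome 12, 110690605 to 110702728, minus strand), the form more inducible by stress, had 14962 reads in the GR library and 14304 in the control library, a fold of 1.05 (1.03 to 1.07). The interval of Hsp90aa1 excluded 1, yet 35.5% of genes with at least 1000 reads had a larger absolute log2 fold. Its log2 fold was 0.07, and 0.02 once the trend of folds with GC content (43.7% in its longest transcript) was removed. Per length Hsp90aa1 stood at 52.5% of Hsp90ab1 in the GR library and 50.0% in the control library.

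HSP70 takes up newly made receptor first, and STIP1 hands it on to HSP90 by binding both chaperones. Hspa8, the constitutive cytosolic HSP70 (chromosome 9, 40800984 to 40810087, plus strand), had 14104 reads in the GR library and 13911 in the control library, a fold of 1.02 (0.993 to 1.04). Stip1 (chromosome 19, 7020696 to 7040026, minus strand) had 4555 reads in the GR library and 4616 in the control library, a fold of 0.990 (0.950 to 1.03). For both genes the interval included 1. Per length, Stip1 stood at 19.0% of the summed HSP90 genes in the GR library and 19.5% in the control library.

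Ptges3 encodes p23, which closes HSP90 around the receptor and slows ATP hydrolysis (chromosome 10, 128058954 to 128077272, plus strand). It had 2655 reads in the GR library and 2423 in the control library, which is 9.89% higher (interval of the fold 1.04 to 1.16), the largest fold of the 7 chaperone genes. Of the genes with at least 1000 reads, 7.31% had a larger absolute log2 fold. Its count is uncertain, because a processed copy on chromosome 6, Ptges3-ps (85843980 to 85844459), is 480 bases long and is found whole, base for base, inside the Ptges3 transcript at positions 332 to 811. Both start as printed here from the GENCODE M21 transcripts (GRCm38), 5′ to 3′, over the first 60 bases of the copy, to show that a read from there cannot be placed by sequence.
Ptges3: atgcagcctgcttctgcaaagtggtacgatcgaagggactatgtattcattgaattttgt
Ptges3-ps: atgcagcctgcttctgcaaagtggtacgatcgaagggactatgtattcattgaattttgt

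Ptges3-ps was credited with 717 reads in the GR library and 753 in the control library, opposite in direction to Ptges3. Summed with it and with the 3 and 2 reads of a second copy, Gm11893, Ptges3 had 3375 reads in the GR library and 3178 in the control library, a fold of 1.07 (1.01 to 1.12). The log2 fold was thus 0.14 for Ptges3 alone and 0.09 with its copies, and it was also 0.09 for Ptges3 alone with the GC trend removed.

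Other members share sequence with copies too. Of the 31-mers of Hsp90aa1, 51.5% occur in another annotated gene. Its closest copy, the transcribed pseudogene Gm12346 (46.7% of the 31-mers), had 196 reads in the GR library and 178 in the control library. Of those of Hspa8, 44.8% are shared, most with the pseudogene Gm15459 (38.6%), for which no reads were used here. Stip1 shared 6.45% of its 31-mers with Cfap20, a gene of the cilium with 968 reads in the GR library and 989 in the control library. Reads were added from genes at 5% or more among the 5 sharing most with each member. For Hspa8 the last of these still shared 18.9%, so further copies may be left out. The sums left Hsp90aa1 at 1.05-fold, Hspa8 at 1.02-fold and Stip1 at 0.988-fold. Few reads were added to Hsp90aa1 (sums of 15171 in the GR library and 14487 in the control library) and Hspa8 (14128 and 13933). Their folds could therefore hardly move, and the sums do not show how many reads were exchanged with copies. Shares were 13.2% for Hsp90ab1, 3.01% for Fkbp4 and 2.06% for Fkbp5, with no single listed gene at 5% or more.

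The pair of immunophilins lay on either side of 1. Fkbp4, for FKBP52 (chromosome 6, 128429735 to 128438677, minus strand), had 7277 reads in the GR library and 7592 in the control library, a fold of 0.961 (0.931 to 0.993). Fkbp5, for FKBP51 (chromosome 17, 28399094 to 28517527, minus strand), had 2714 reads in the GR library and 2580 in the control library, a fold of 1.05 (0.999 to 1.11). A larger absolute log2 fold was held by 44.8% of the genes with at least 1000 reads in the case of Fkbp4 and by 29.8% in the case of Fkbp5. Per length, Fkbp5 stood at 11.0% of Fkbp4 in the GR library and at 10.0% in the control library, a change of that ratio by 1.1-fold (1.03 to 1.17 by counting error). The interval of Fkbp5 reached 1.11 at its upper end and covers counting error only, not the spread between libraries. Whether Fkbp5 followed Nr3c1 (1.97-fold) was not tested.

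The stretches before the RefSeq start sites of these paralogs are printed because Fkbp5 is a textbook target of GR, and to show what the pair has in common there. They are RefSeq promoter sequence (GRCm38.p6), from 250 to 31 bases before the start, 5′ to 3′ on the gene's strand, 220 bases each. The RefSeq start of Fkbp5 (28486149) lies inside the gene span given above: of 7 coding transcripts of Fkbp5 in GENCODE, 1 starts at that base and 3 start farther upstream, by up to 31375 bases, so the window is that of 1 of several annotated starts. Capitals mark GGGCGG (the GC box), CCAAT and GAANNTTC (a pair of inverted units of the heat shock element), on either strand. In Fkbp5, a GC box and a reverse CCAAT lie side by side.
Fkbp4, chr6:128438687-128438906, minus strand: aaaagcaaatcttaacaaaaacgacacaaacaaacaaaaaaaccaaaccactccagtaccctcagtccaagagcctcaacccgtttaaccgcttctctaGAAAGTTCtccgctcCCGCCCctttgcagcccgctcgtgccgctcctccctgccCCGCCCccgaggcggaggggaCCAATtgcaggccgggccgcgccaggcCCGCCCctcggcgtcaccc
Fkbp5, chr17:28486180-28486399, minus strand: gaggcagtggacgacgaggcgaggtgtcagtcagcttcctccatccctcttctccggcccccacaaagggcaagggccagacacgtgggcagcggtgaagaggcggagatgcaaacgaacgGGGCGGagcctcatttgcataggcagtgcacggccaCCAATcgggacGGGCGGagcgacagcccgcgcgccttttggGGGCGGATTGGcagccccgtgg

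Of the 8 genes, 4 were matched in the RefSeq promoter table and searched (Fkbp4, Fkbp5, Ptges3 and Stip1). GGGCGG was found in 3 of the 4 (Fkbp4, Fkbp5 and Ptges3), against 28.5% of 32851 promoter windows of the same length, and CCAAT in 3 of the 4 (Fkbp4, Fkbp5 and Stip1), against 31%. GAANNTTC, which reads the same on both strands, was found in Fkbp4 alone among the 4 and in 5.73% of all windows. TTCNNGAA, the other arrangement of the heat shock units, was found in none of the 4 and in 6.30% of all. The palindrome bound by GR, searched as GNACANNNTGTNC, was found in none of the 4 and in 0.362% of all windows. These are matches of letters in short windows, and elements elsewhere in a gene were not searched.

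Set against its chaperones within each library, the receptor stood higher with the GR vector by about its own fold. Per length, Nr3c1 came to 6.33% of the summed HSP90 genes in the GR library and 3.26% in the control library, a change of 1.94-fold. Against Hsp90ab1 alone it came to 9.66% with the GR vector and 4.90% with the control vector, a change of 1.97-fold (1.87 to 2.07). The change was lowest against Ptges3, at 58.5% in the GR library and 32.6% in the control library (1.79-fold, 1.67 to 1.93), and highest against Fkbp4, at 26.9% and 13.1% (2.05-fold, 1.94 to 2.17). These ratios do not depend on the scaling of the libraries. They compare reads per annotated length, and the length of the transcript made from the vector is not known here. For Nr3c1 in the GR library they therefore need not equal ratios of transcripts. Protein was not measured here.

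**Figure D4:**
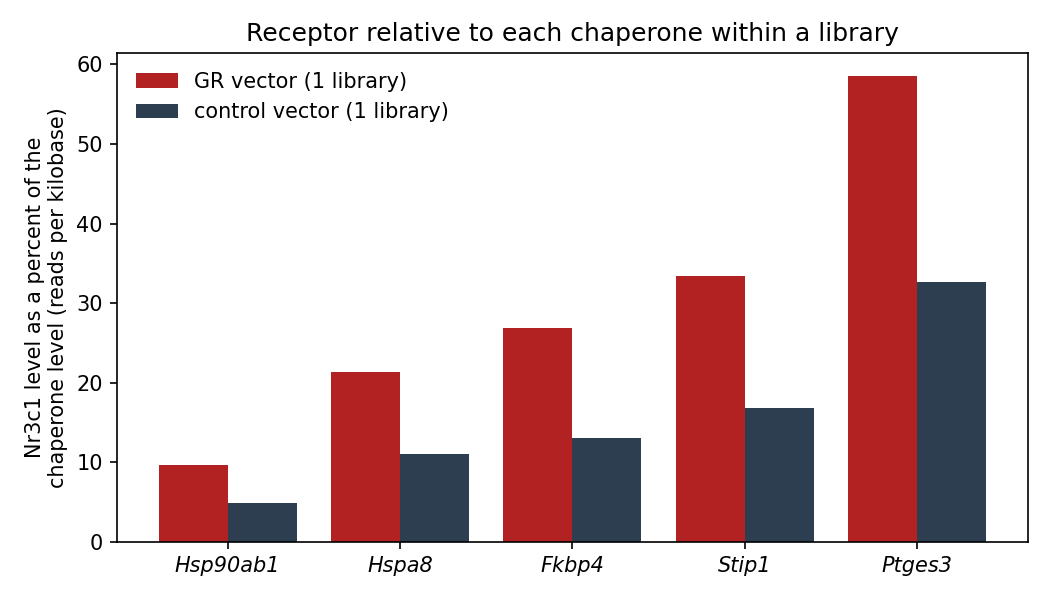
Level of Nr3c1 (reads per kilobase) as a percent of the level of each of 5 chaperone genes within the same library, with the GR vector (red, left bar) and the control vector (dark, right bar), 1 library each. Against every chaperone drawn the bar of the GR library is the higher, by 1.79-fold for Ptges3 to 2.05-fold for Fkbp4.

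The wider chaperone network and the factors that carry or assist GR held no gene past 1.5-fold among those averaging 50 reads or more. Over 11 lists, 120 genes other than the 8 averaged 50 reads or more, and these are called measured below. Of these, 0 passed 1.5-fold, against 0.866% of all genes, and their median log2 fold was 0.02, against 0.004 over all genes with as many reads. The lists were better read than all genes: 91 of the 120 averaged at least 1000 reads, against 4867 of 12119. Among those 91, 0 passed 1.5-fold and 4 passed 1.1-fold, against 0.103% and 7.09% of the 4867.

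Among relatives of HSP90, Hsp90b1 (the form of the endoplasmic reticulum) had 9503 reads in the GR library and 9062 in the control library, a fold of 1.05, and Trap1 (the mitochondrial form) 1168 and 1269, a fold of 0.923. The 22 measured co-chaperones of HSP90 had a median log2 fold of -0.004, with 10 above 0 and 12 below. Fkbp8, a membrane-anchored relative of the immunophilins, had 4250 reads in the GR library and 4493 in the control library, and Tomm70a, a mitochondrial import receptor that docks HSP90, had 3452 and 3387. The ends among these 22 were Rpap3 with 402 reads in the GR library and 340 in the control library (1.19-fold, 1.02 to 1.37) and Fkbpl with 94 and 118 (0.799-fold, 0.603 to 1.06). Cdc37, which brings kinases to HSP90, stood at 0.997-fold, Ahsa1, which speeds its ATPase, at 0.998-fold, and Ppp5c, a phosphatase that joins the GR complex, at 0.968-fold; these 3 were chosen for their roles after their values were seen.

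The 12 measured members of the HSP70 family had a median log2 fold of 0.06 (0.02 after removal of the GC trend), and 9 lay above 0 and 3 below. Hspa9 of the mitochondrion had 16283 reads in the GR library and 15857 in the control library (1.03-fold), and Hspa5 of the endoplasmic reticulum 9740 and 9362 (1.04-fold). The stress-inducible pair, near-identical genes whose reads may be exchanged, were little read: Hspa1a had 57 reads in the GR library and 53 in the control library, and Hspa1b 46 and 68. The 10 exchange factors and adaptors of HSP70 had a median of 0.01 on the log2 scale. St13, an adaptor of the GR complex, had 3510 reads in the GR library and 3316 in the control library, and Stub1, the ubiquitin ligase CHIP that marks chaperone clients for degradation, had 1807 and 2040 (0.888-fold, 0.833 to 0.947). Bag6 stood at 0.973-fold and Hspbp1, an exchange factor, at 0.915-fold.

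The 13 HSP40 genes, which start the ATPase cycle of HSP70, ran from a log2 fold of -0.10 to 0.13 with a median of 0.02. Dnaja1 had 2838 reads in the GR library and 2760 in the control library and Dnajb11 2755 and 2619, while the largest differences were those of Dnajb6 (1.09-fold) and Dnaja2 (1.08-fold). Among 7 other measured FK506-binding proteins the median was -0.02 (0.007 with the GC trend removed). Fkbp1a and Fkbp9 stood at 0.981-fold and 0.983-fold, Fkbp1b had 213 reads in the GR library and 172 in the control library (1.24-fold, 1.01 to 1.53), and Fkbp14 had 137 and 114 (1.21-fold, 0.933 to 1.56). Heat shock factors and small heat shock proteins (10 measured) had a median of 0.03. In that list the mitochondrial chaperonin gene Hspd1 had 4441 reads in the GR library and 4195 in the control library, and Hsbp1, which binds heat shock factor, 1990 and 1966. The ends were Hspb11, which serves intraflagellar transport and not folding, with 235 and 164 reads (1.44-fold, 1.17 to 1.77), and Hspb1 with 67 and 92 (0.730-fold, 0.525 to 1.01).

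Transport and import factors of GR (14 measured) had a median of 0.01 on the log2 scale (-0.004 after removal of the GC trend), and 7 lay above 0 and 7 below. Dync1h1, the dynein heavy chain, had 16228 reads in the GR library and 14890 in the control library (1.09-fold, 1.07 to 1.12), whereas the light chain gene Dynll1 had 1000 and 1175 (0.854-fold, 0.784 to 0.929). Of the importins, Kpna1 stood at 1.11-fold and Kpnb1 at 1.03-fold. Of the 14, 8 had an interval that excluded 1, against 18.7% of all genes with at least 50 reads and 26.6% of those with at least 1000 reads. These 8 were on both sides of 1, 5 higher in the GR library and 3 lower.

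Co-regulators of GR (18 measured) had a median of -0.02 on the log2 scale, with 8 above 0 and 10 below. The co-repressor scaffold Trim28 had 8175 reads in the GR library and 8396 in the control library and Ncor1 7697 and 7432. Smarcd1, a chromatin remodelling subunit that contacts GR, had 817 reads in the GR library and 936 in the control library (0.875-fold, 0.796 to 0.963), and Med14 stood at 1.08-fold. Enzymes that modify GR or HSP90 (11 measured) had a median of 0.03. Csnk2a1, the catalytic subunit of casein kinase 2, had 2508 reads in the GR library and 2103 in the control library (1.20-fold, 1.13 to 1.27), and Mapk8 stood at 0.904-fold, while Gsk3b stood at 1.04-fold.

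Other receptors that HSP90 carries were scarce in these cells. Nr3c2, the mineralocorticoid receptor, which also binds glucocorticoids, had 41 reads in the GR library and 38 in the control library. Pgr had 16 reads in the GR library and 20 in the control library, Esr1 had 9 and 7, and Esr2 had 2 and 0. Ahr, the dioxin receptor, had 148 reads in the GR library and 178 in the control library (0.834-fold, 0.666 to 1.04). Against these, Nr3c1 had 5202 reads in the GR library and 2645 in the control library.

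**Figure D5:**
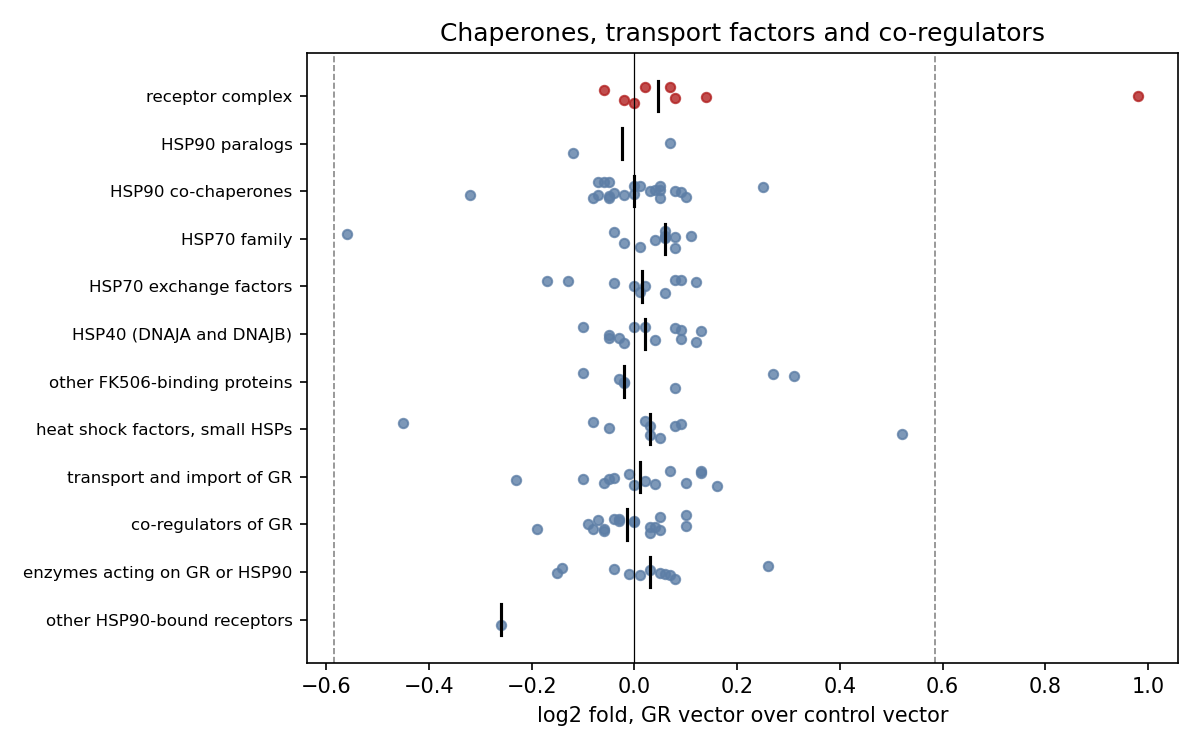
The log2 fold of the GR library over the control library for the 8 genes of the receptor complex (red, top row) and for the genes of 11 lists averaging 50 reads or more (blue); black ticks are medians and dashed lines 1.5-fold either way. Only Nr3c1, at 0.98, lies beyond a dashed line.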

How the data were processed

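Per the labels' protocols, total RNA of 1 MIN6 culture per vector was extracted with Trizol and sequenced on standard Illumina libraries. For each gene the authors deposited a normalized signal (scaled read counts) in each library, their own log2 fold change (GR over control), a p-value and an adjusted p-value. Of tools, DESeq2 1.10.1 is named in the submitters' processing notes. The sources used here do not give the aligner, the counter, whether strand was used, or the build. Each signal column held whole multiples of 1 step (100% of values within 0.01 reads), and 0 columns belonged to other samples. The recovered reads were scaled by TMM in edgeR 4.0.16 (factors 1.00 for both libraries). The deposited p-values differed by at most 4.5e-08 from an exact test of edgeR on these reads with a preset dispersion of 0.04, which called 4 genes at an adjusted p under 0.05, as many as the deposited table.

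Folds are ratios of scaled reads. Their intervals were checked on simulated libraries that held counting error only, so the check does not cover spread between libraries. Reads per gene limit the precision. Of 21542 gene identifiers, 21533 occur in GENCODE M21 (GRCm38), 97.0% with the same start and end as deposited; Nr3c1 and Stip1 differ, and their deposited coordinates are printed. That annotation gave GC content, transcript lengths and shared 31-mers over all annotated transcripts. Motifs were searched on both strands. The members and lists were chosen with earlier results of these data known. Named genes are the 8 members, from each list the 2 most read and the 2 with the largest absolute log2 fold at a mean of at least 50 reads, the 3 genes nearest Nr3c1 in log2 fold, and for each member the gene sharing most of its 31-mers at 5% or more. The neighbours of Nr3c1, the scarcely read receptors and the cell markers are named besides. A planned replicate test could not be run with 1 library per group. The deposited list of selected genes and the gene set tables were not used. Values of some list genes are not reported here; the counts and medians of their lists include them.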

Additional observations from a re-analysis of the deposited data

How the results depend on the processing

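The log2 fold of Nr3c1 lay between 0.92 (GC trend removed) and 0.98 under total-read, median-of-ratios and upper-quartile scaling, with the trend of length or GC content removed and in the authors' deposited table. Under each of these settings 1 of the 8 genes passed 1.5-fold. The count was the same with the reads of genes sharing 5% or more of a member's 31-mers added (an alternative chosen after seeing the data). Only the 5 genes sharing most with each member were considered, so others at 5% or more may be left out. Not all of the added genes are copies of a member, as Cfap20 was added to Stip1. No gene was added to Nr3c1, so its reads could not change in that setting. With reads scaled as reported 1 of the 8 passed 1.1-fold, and 2 did with upper-quartile scaling and with the length trend removed, where Ptges3 was 10.1% and 10.8% higher. The median of the 7 chaperone genes lay between 0.01 and 0.03. The change of the ratio of Nr3c1 to HSP90 was 1.94-fold, and 1.97-fold against Hsp90ab1 alone. Of the 120 genes of the wider lists averaging 50 reads or more, 0 passed 1.5-fold and 14 passed 1.1-fold. Among all 12119 genes averaging 50 reads or more, 0.866% and 24.9% did. The genes of the lists were better read: 91 of the 120 averaged at least 1000 reads, against 4867 of the 12119. Among those 91, 0 passed 1.5-fold and 4 passed 1.1-fold, against 0.103% and 7.09% of the 4867. Of the listed genes, 1 and 2 passed 1.5-fold with a minimum mean of 10 reads and with no minimum. Over all genes, 105 passed 1.5-fold at a mean of at least 50 reads, and 3020 passed 1.1-fold; 930 passed 1.5-fold at a minimum of 10 reads, 8 at 500 and 5506 with no minimum, since genes with few reads scatter more. The log2 fold of Hsp90aa1 was 0.07, and 0.02 with the GC trend removed; that of Ptges3 was 0.14, and 0.09 in that setting. No paired analysis was possible because each group has 1 library.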
